A study of Mus musculus with 15 samples.

Results

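TRIM proteins are a large family, most of them ubiquitin ligases, and their genes were read here in the cerebral cortex of senescence-prone and senescence-resistant mice. The members were all features of the array whose single gene symbol is Trim followed by a digit. They came to 103 of the 45220 features of the value table, for 57 genes. Of these features 83 had values, for 50 of the 16401 genes measured, and 20 were empty on all arrays. The 7 genes without values were Trim15, Trim29, Trim31, Trim42, Trim52, Trim61 and Trim80.

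Most TRIM proteins, though not all, start with a RING finger, which recruits an E2 enzyme carrying ubiquitin. B-box zinc fingers follow, and a coiled coil through which the molecules pair. The end of the chain differs between members and picks the target. Many members with a PRY-SPRY end act in antiviral defence and are switched on by interferon, the cytokine that warns cells of viral nucleic acid. Members with NHL repeats or a COS box are known in neurons, where they act on the cytoskeleton, axon branching and synapses.

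Cortex of adult female mice was hybridised to 15 one-colour Cy3 arrays. SAMR1, the senescence-resistant control strain, was kept sedentary (replicates 1 to 5); SAMP8, the senescence-accelerated strain with early memory decline, was sedentary (replicates 6 to 10) or exercised (replicates 11 to 15). No exercised SAMR1 group was analysed here, no source used here gives the exercise regime, and SAMP8 and SAMR1 are different inbred strains, so a strain difference covers their whole genetic background. Replicates are biological by their labels, which leave unsaid whether 1 animal or a pool went on each array; if material was shared, the p-values measure only the spread between these samples. Neuron markers were bright (log2 of their summed intensity 16.84 to 17.16 over the SAMR1 arrays), as the labelled tissue has them. Pairs of arrays correlated at 0.976 to 0.991 over all genes. Values below are log2 intensity, and a difference of 1 is a doubling. The brightness of a feature depends on its probe, so levels are compared between groups and never between genes. No probe sequences were used, so whether a probe reads both strains equally well was not tested. The lower quartile of intensity was at 6.16 to 6.18 on each array, and a value below it is called dim, since no detection calls were used. In bulk cortex, fewer cells of a type and less RNA per cell cannot be told apart.

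The comparison of sedentary SAMP8 with sedentary SAMR1 asked how the strains differ at rest. In it 5 of the 50 Trim genes passed (10%), where 3.03% of all genes did (limma, adjusted p under 0.05 over 16401 genes). All 5 rose, where 1.85% of all genes rose, and 0 fell, where 1.18% of all genes fell. At an unadjusted p under 0.05 there were 10 of 50 (20%), where 14.3% of all genes had one. The 5 were Trim12a, Trim34a, Trim30a, Trim36 and Trim67. The first 3 lie in the Trim5 cluster on chromosome 7, which holds the mouse relatives of the primate retrovirus restriction factor TRIM5. Trim36 and Trim67 are COS box members, which bind microtubules. Over all 50 genes the median difference was 0.06, against 0.02 over all genes, and 33 of 50 were above 0 (66%), where 54.4% of all genes were. In 4 of 50 (Trim12a, Trim34a, Trim30a and Trim36) the arrays of the groups did not overlap, all 4 higher in SAMP8 (8%); of all genes 4.57% did not overlap, 2.92% higher and 1.65% lower.

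**Figure D1:**
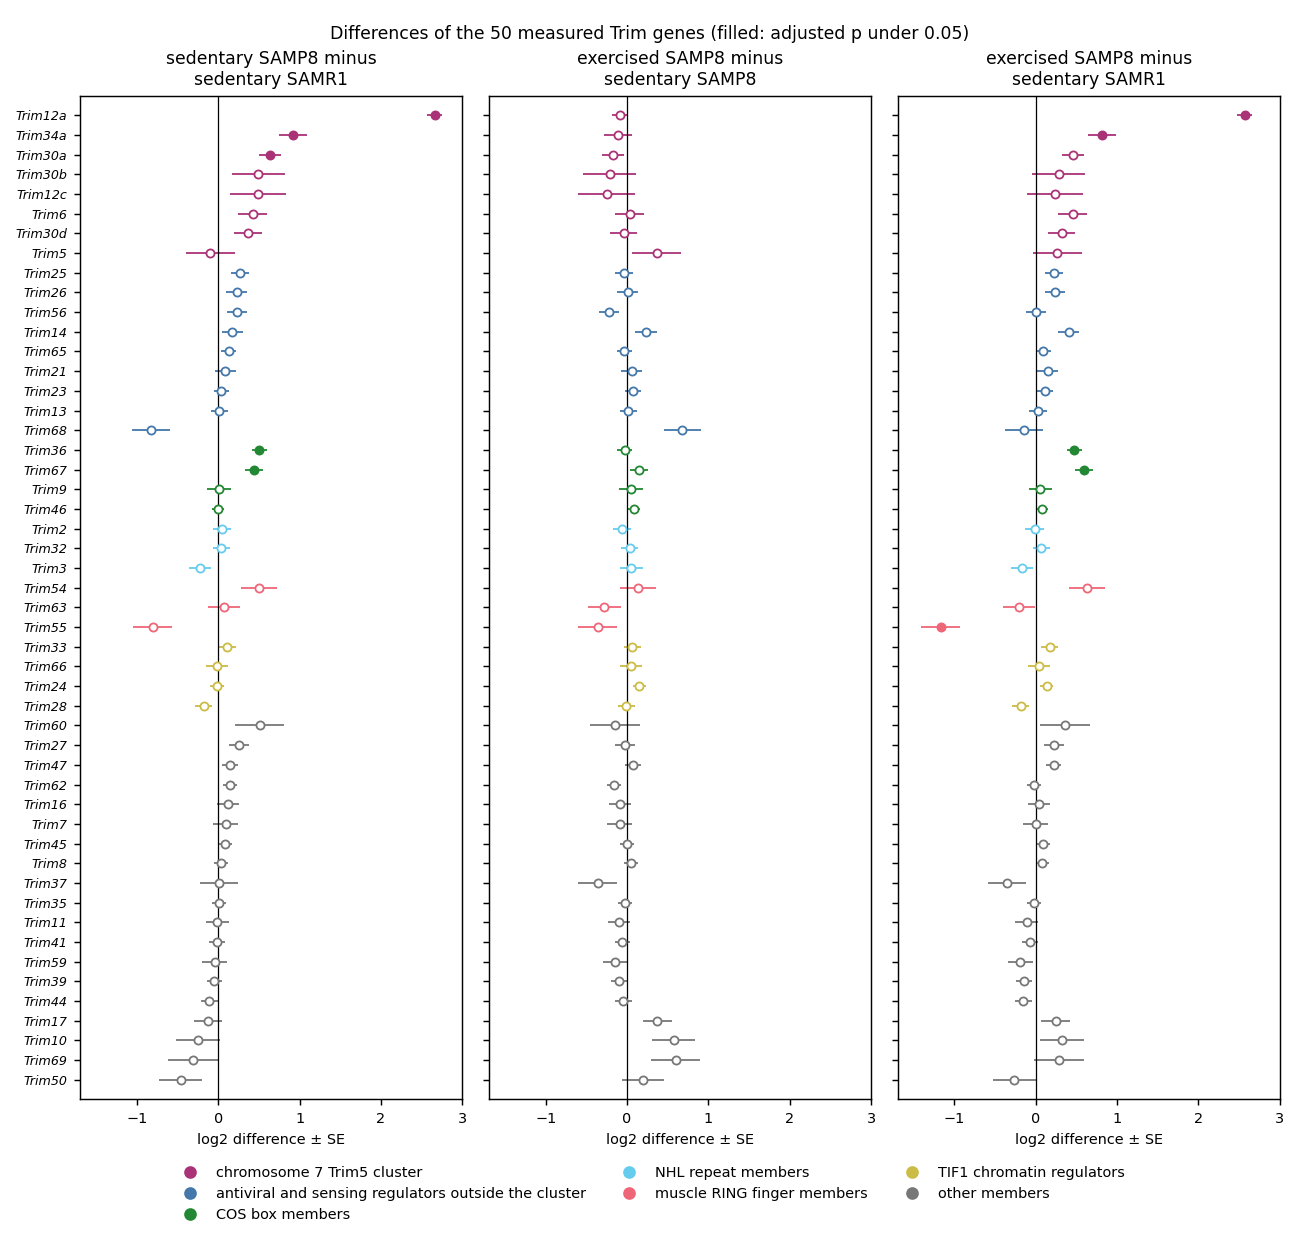
Differences of the 50 measured Trim genes in the 3 comparisons, with the log2 difference and its SE on the x axis and genes grouped by class on the y axis. Filled points passed adjusted p 0.05 in limma; Trim12a stands alone at 2.66 and 2.57 against SAMR1, and no point is filled in the exercise panel.

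The sequences around the starts of the cluster genes are shown first, because they show how closely these genes resemble each other and which of them carry a letter pattern known from interferon-induced genes. They are RefSeq sequences of build GRCm38.p6, from C57BL/6J mice and not from either SAM strain, read 5′ to 3′ on the gene's strand, and each window ends at most 30 bases after the start. Capitals mark the match to GAAANNGAAA on either strand, the core of the interferon-stimulated response element, the only motif searched. The windows are chr7:104315466-104315585 (minus strand) for Trim12a, chr7:104288111-104288230 (minus) for Trim5, chr7:104353334-104353453 (minus) for Trim12c, chr7:104244367-104244486 (plus) for Trim34a and chr7:104465185-104465304 (minus) for Trim30a.
Trim12a: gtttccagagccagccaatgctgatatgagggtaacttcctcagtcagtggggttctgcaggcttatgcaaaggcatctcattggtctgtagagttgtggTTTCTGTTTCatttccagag
Trim5: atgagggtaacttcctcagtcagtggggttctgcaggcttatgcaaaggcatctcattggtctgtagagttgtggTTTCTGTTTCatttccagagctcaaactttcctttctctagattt
Trim12c: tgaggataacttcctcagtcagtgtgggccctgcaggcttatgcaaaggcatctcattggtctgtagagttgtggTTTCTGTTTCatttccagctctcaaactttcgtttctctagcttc
Trim34a: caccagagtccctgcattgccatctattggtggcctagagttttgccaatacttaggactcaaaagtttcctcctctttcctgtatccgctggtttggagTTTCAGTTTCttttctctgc
Trim30a: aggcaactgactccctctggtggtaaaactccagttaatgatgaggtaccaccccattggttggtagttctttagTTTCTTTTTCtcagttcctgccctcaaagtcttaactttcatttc

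Within the 300-base promoters of the table (250 bases before the start and 50 after), those of Trim12a and Trim5 shared a stretch of 241 aligned bases without a difference, placed differently relative to the 2 starts. Trim12a and Trim12c shared 247 of 261 aligned bases (94.6%), and Trim30a and Trim30d shared 276 of 294 (93.9%). The pattern was found in the promoters of 6 of the 8 measured cluster genes: those shown and Trim30d, but not Trim6 or Trim30b. Outside the cluster it was found in 3 of 30 Trim genes with a promoter in the table, Trim2, Trim21 and Trim26. It was present in 3.99% of all 27025 genes with a promoter there. The cluster genes are copies of each other, so their matches are not independent, and a match describes letters and not binding.

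Trim12a, a mouse relative of TRIM5 in the cluster, had the largest difference of the family. Its log2 intensity was 5.51, 5.48, 5.62, 5.25 and 5.26 on SAMR1 replicates 1 to 5. In sedentary SAMP8 it was 8.25, 8.20, 8.16, 7.85 and 7.95 on replicates 6 to 10, and in exercised SAMP8 it was 7.96, 8.08, 8.03, 7.92 and 7.97 on replicates 11 to 15. Every SAMP8 array thus lay more than 2 log2 units above every SAMR1 array. The rise in sedentary SAMP8 was 2.66 ± 0.09 (SE), or 6.32-fold (limma adjusted p = 9.06e-11). All 5 SAMR1 values were dim, so the size of the fold rests on values near an unknown floor; the sedentary SAMP8 mean lay 1.91 above the lower quartile itself, or 3.76-fold. The dimmer second feature of Trim12a rose as well, by 1.85 ± 0.20 (limma adjusted p = 5.88e-05 over all features), from 3.93 to 5.34 over the SAMR1 arrays to 6.32 to 6.73 over the sedentary SAMP8 arrays.

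Trim34a, a neighbour in the cluster whose human relative TRIM34 also acts against retroviruses, read 6.40, 5.75, 5.07, 5.74 and 5.68 in SAMR1. It read 6.88, 6.74, 6.62, 6.43 and 6.56 in sedentary SAMP8. SAMR1 replicate 1 lay just under the lowest SAMP8 array, and the other 4 SAMR1 arrays were dim. The rise was 0.92 ± 0.17, or 1.89-fold (limma adjusted p = 0.00602). It was carried by 1 of 3 features: the other features gave 0.19 ± 0.16 and -0.46 ± 0.22 (limma adjusted p = 0.655 and 0.359 over all features), and the mean of the 3 gave 0.22 (adjusted p = 0.406), past the threshold no longer.

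Trim30a, known in mice as a brake on NF-kappaB signalling below Toll-like receptors, read 6.04, 5.89, 5.82, 5.81 and 6.05 in SAMR1, all dim. In sedentary SAMP8 it read 6.57, 6.63, 6.69, 6.32 and 6.56, with no overlap. The rise was 0.63 ± 0.14, or 1.55-fold (limma adjusted p = 0.0161), and the second feature gave 0.47 ± 0.13 (limma adjusted p = 0.0745 over all features). Both features thus lay above 0, and only the brighter one passed.

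The other measured genes of the cluster did not pass, and nearly all of their values were dim. Trim6, which in human cells builds free ubiquitin chains for interferon signalling, gave 0.42 ± 0.18 (limma adjusted p = 0.278). For Trim12c, a close copy of Trim12a, the difference was 0.49 ± 0.35 (0.575), for Trim30b 0.49 ± 0.33 (0.528) and for Trim30d 0.36 ± 0.17 (0.351). Trim5 gave -0.10 ± 0.30 (limma adjusted p = 0.930), with SAMR1 arrays from 4.48 to 6.24 and sedentary SAMP8 arrays from 4.78 to 5.83, so that the groups overlapped fully. Its promoter in the reference is the one that shares the 241-base stretch with that of Trim12a. Of the 8 cluster genes 7 were above 0, with a median of 0.49. Copies this close may share signal between features, which was not tested.

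**Figure D2:**
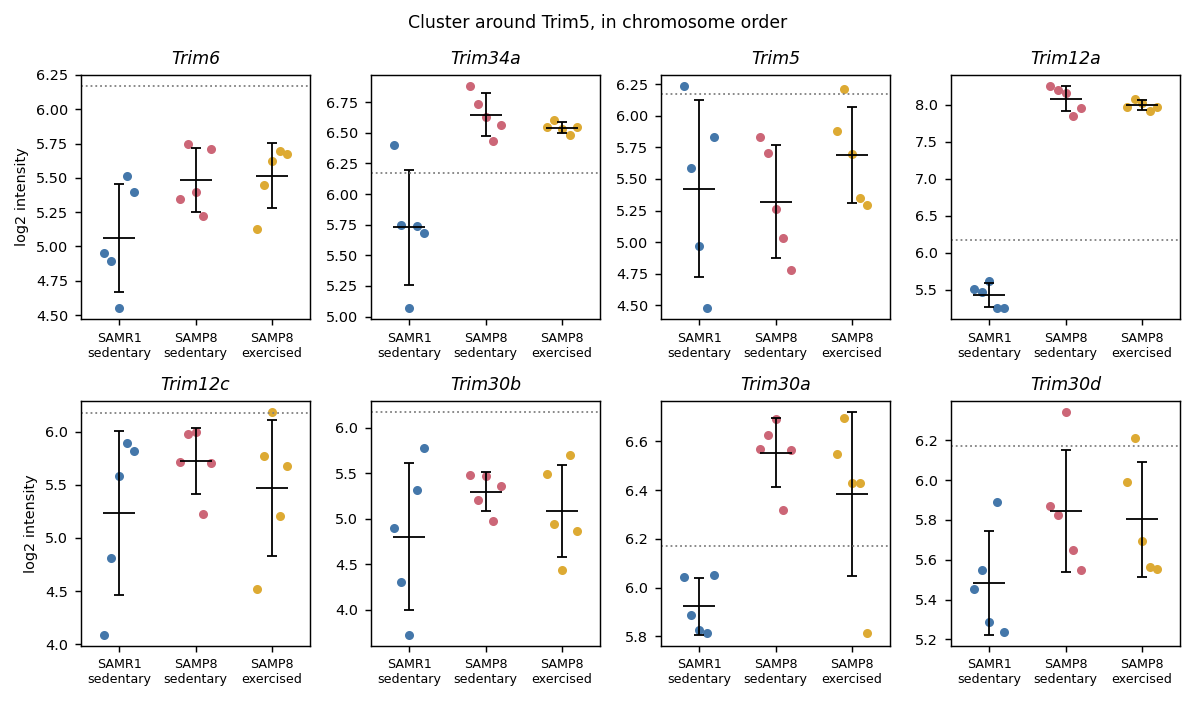
Log2 intensity of the 8 measured cluster genes on each array, in chromosome order, with points for arrays, a bar for the group mean and whiskers for 1 SD (n = 5 each); y axes differ between panels. The dotted line is the lower quartile of all features; the means of Trim12a, Trim34a and Trim30a lie below it in SAMR1 and above it in sedentary SAMP8, and the other 5 genes stay mostly below it.

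Genes next to the cluster were also read. The 20 nearest measured genes on each side included 26 olfactory receptor genes and Trim3. Of the 39 that are no Trim gene 0 rose and 1 fell, with a median of -0.07. However, 22 of the 39, among them 17 olfactory receptor genes, were dim on at least 4 of 5 arrays in both sedentary groups, so a difference there could hardly be seen. Of the 10 that were dim on no sedentary array, 0 rose and 1 fell. The one that fell was Cckbr, a receptor of the neuropeptide cholecystokinin that is expressed in cortex, at -0.71 ± 0.10 (limma adjusted p = 0.000754). Olfr649 and Olfr656, the measured genes that border the cluster, gave -0.18 ± 0.33 and -0.16 ± 0.25.

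**Figure D3:**
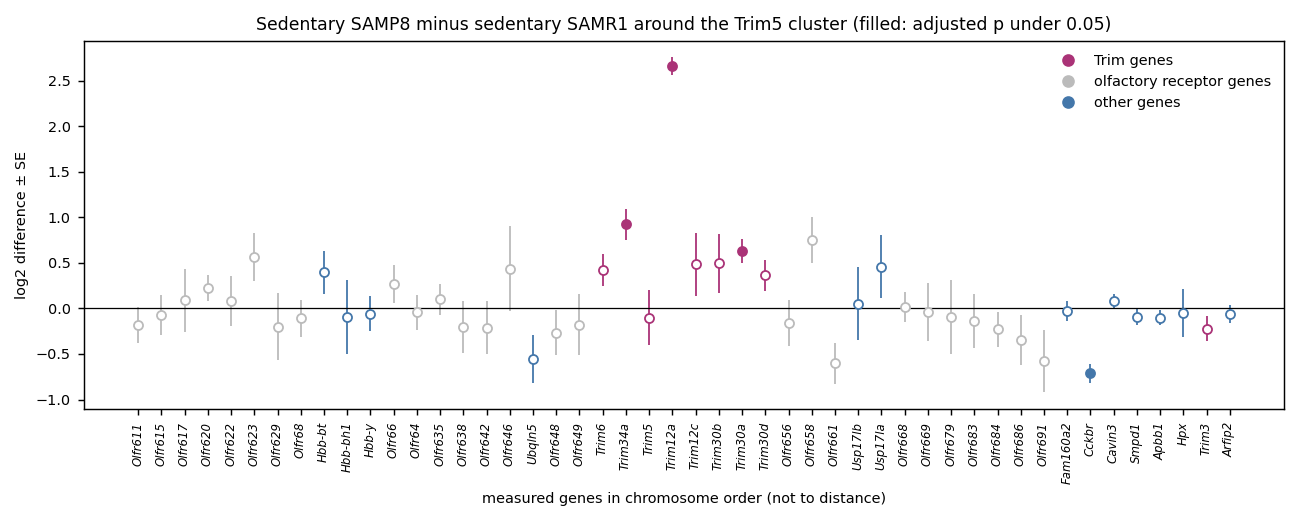
Log2 difference between sedentary SAMP8 and sedentary SAMR1 with its SE (y axis) for the 8 cluster genes and the 20 nearest measured genes on each side, in chromosome order and not to distance (x axis). Filled points passed adjusted p 0.05: Trim34a, Trim12a and Trim30a above 0, and Cckbr below 0.

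Antiviral and sensing regulators outside the cluster held 9 measured genes, of which 0 rose and 0 fell in sedentary SAMP8 (limma; 2 at an unadjusted p under 0.05). Trim25, which activates the RNA sensor RIG-I, gave 0.27 ± 0.11 (limma adjusted p = 0.277). Its second feature, dim on nearly all arrays, gave -0.02 ± 0.23. Trim68, which in human cells restrains interferon production, had the most negative difference of the 50 genes, at -0.82 ± 0.23 (limma adjusted p = 0.0785). It read 9.24, 9.33, 9.10, 9.46 and 8.93 in SAMR1 and 8.11, 7.86, 9.03, 8.69 and 8.24 in sedentary SAMP8. Sedentary replicate 8 overlapped with SAMR1, and without that array Trim68 passed at -0.99 (limma adjusted p = 0.0259).

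The COS box members held 4 measured genes, of which 2 rose, where 1.85% of all genes rose. The class is small, so this count is no result about it. Trim36, which binds microtubules and is known from the sperm acrosome, read 6.15, 6.34, 6.56, 6.53 and 6.22 in SAMR1 and 6.93, 6.98, 6.75, 6.87 and 6.79 in sedentary SAMP8. The groups did not overlap, and the rise was 0.50 ± 0.09, or 1.42-fold (limma adjusted p = 0.00521), on its only feature. That feature was faint: SAMR1 replicate 1 was dim, and the means of SAMR1 and sedentary SAMP8 lay 0.19 and 0.69 above the lower quartile. Trim67, a brain-enriched partner of Trim9 in the response of growing axons to netrin, read 7.44, 7.20, 6.97, 6.98 and 7.02 in SAMR1 and 7.47, 7.43, 7.75, 7.73 and 7.43 in sedentary SAMP8. SAMR1 replicate 1 reached the lowest SAMP8 arrays, and the rise was 0.44 ± 0.11, or 1.36-fold (limma adjusted p = 0.0402). Its second feature gave 0.08 ± 0.20. The call on Trim67 was lost without any 1 of SAMR1 replicates 2 to 5 or of SAMP8 replicates 6, 8 and 9 (0.40 to 0.47, adjusted p 0.0522 to 0.111), and with the mean of its features (0.26, adjusted p = 0.229).

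Trim46, which bundles microtubules at the start of the axon, gave -0.01 ± 0.07, and the brightest feature of Trim9, a brain-specific ligase at synapses and growth cones, gave 0.01 ± 0.14. Trim9 ran from 13.73 to 14.09 in SAMR1 and from 13.65 to 14.22 in sedentary SAMP8, so the groups overlapped. Its 2 other features gave 0.01 ± 0.11 and -0.49 ± 0.14 (limma adjusted p = 0.984 and 0.0884 over all features). On the feature at -0.49 the groups did not overlap, at 7.12 to 7.28 in SAMR1 and 6.41 to 7.03 in sedentary SAMP8.

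Muscle RING finger members, ubiquitin ligases of the sarcomere that also bind microtubules, held 3 genes, and 0 passed in this comparison (limma; 2 at an unadjusted p under 0.05). Trim55 read 11.08, 10.96, 10.65, 11.80 and 10.54 in SAMR1 and 10.17, 10.00, 10.36, 10.63 and 9.86 in sedentary SAMP8, a difference of -0.81 ± 0.24 (limma adjusted p = 0.102). Trim54 gave 0.50 ± 0.22 (0.318), the other way, and Trim63, dim on all 15 arrays, gave 0.07 ± 0.20. The 5 skeletal muscle markers had a summed level of 9.49 to 9.74 in SAMR1 and 9.51 to 9.80 in sedentary SAMP8, overlapping, with 2 of 5 dim on every array of both groups.

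**Figure D4:**
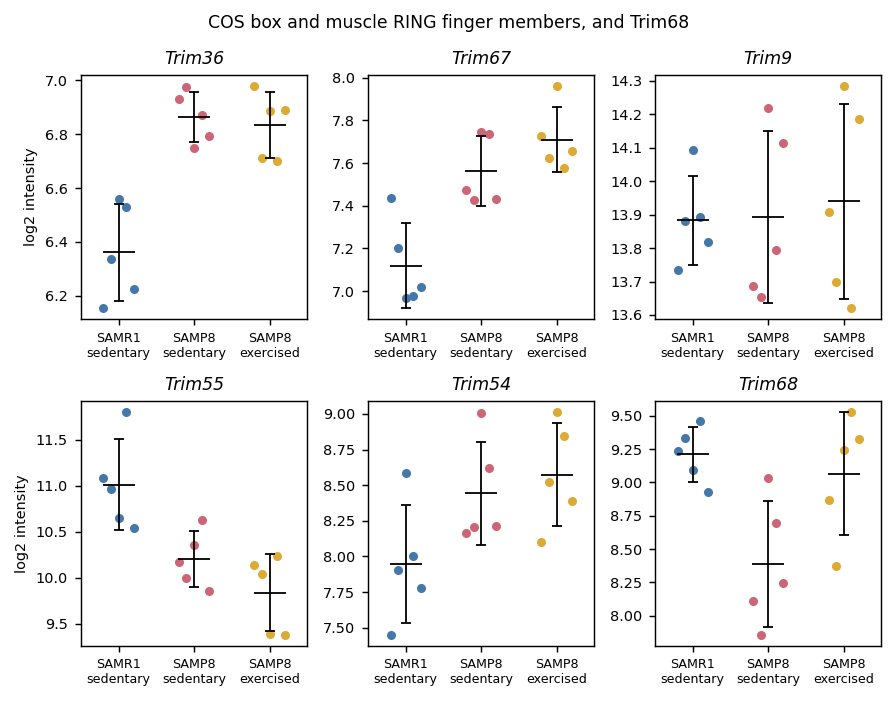
Log2 intensity of Trim36, Trim67, Trim9, Trim55, Trim54 and Trim68 on each array, with points for arrays, a bar for the group mean and whiskers for 1 SD (n = 5 each); y axes differ between panels. All SAMP8 arrays of both groups lie above SAMR1 for Trim36, the exercised arrays lie below SAMR1 for Trim55, and Trim68 is low on 4 of 5 sedentary SAMP8 arrays.

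The NHL repeat members did not pass. Trim2, which tags neurofilament light chain for breakdown, gave 0.05 ± 0.11, Trim3, a ligase of postsynaptic proteins, -0.22 ± 0.14, and Trim32, known in neural progenitors and muscle, 0.04 ± 0.10 (limma adjusted p 0.498 to 0.918). The TIF1 chromatin regulators did not pass either: Trim28, the corepressor that silences retroelements with zinc finger proteins, gave -0.18 ± 0.10 (limma adjusted p = 0.462, 95% interval -0.40 to 0.04), and Trim33, a regulator of TGF-beta signalling, 0.11 ± 0.10 (0.702). Of the 19 other members 0 rose and 0 fell, with 0 at an unadjusted p under 0.05. They ran from -0.46 ± 0.26 for Trim50, known from gastric cells, to 0.51 ± 0.31 for Trim60, which is named as the end of the range, after its value was seen. Trim27, an endosomal ligase, gave 0.25 ± 0.12 (limma adjusted p = 0.365), and its dimmer second feature -0.20 ± 0.21. Trim8 and Trim37, regulators of cytokine signalling and of centriole number, gave 0.03 ± 0.08 and 0.01 ± 0.24.

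Several features of 1 gene often differed. Of the 25 Trim genes with more than 1 feature with values, 14 had all features on the same side of 0 between the sedentary strains and 11 did not, with a median span of 0.16. Over features, 5 of 83 passed (6.02%), where 2.61% of all features did: both of Trim12a and 1 each of Trim30a, Trim34a and Trim36. Trim67 missed with adjustment over all features (adjusted p = 0.0516).

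**Figure D5:**
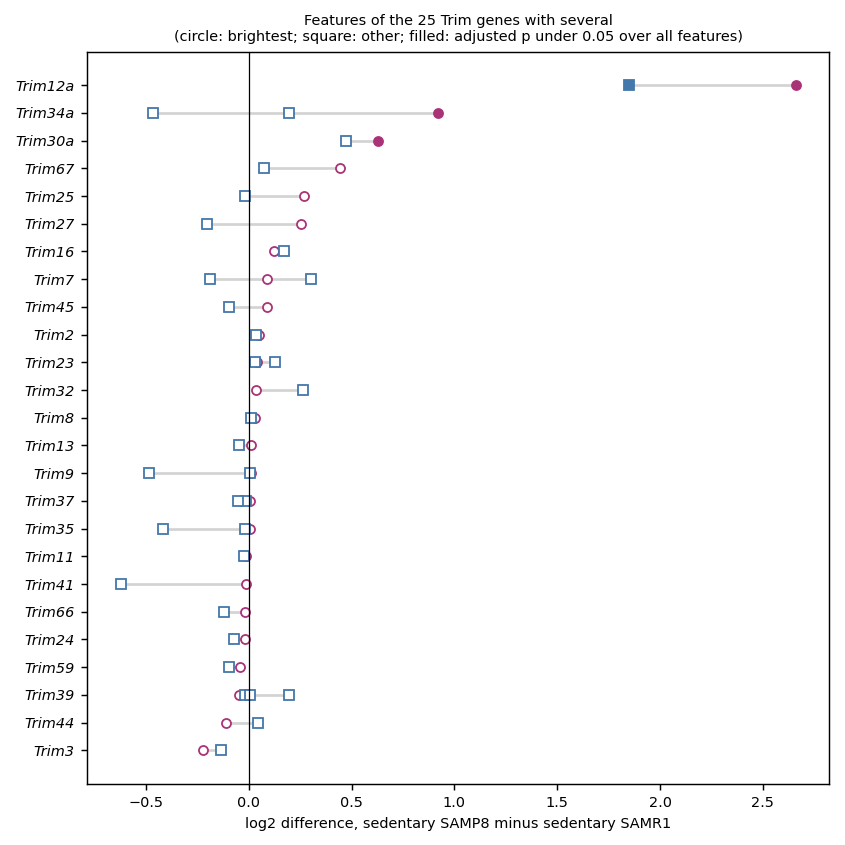
Log2 difference between sedentary SAMP8 and sedentary SAMR1 (x axis) for every feature of the 25 Trim genes with several; circles are the brightest feature, squares the others, and filled symbols passed over all features. Both features of Trim12a lie far to the right, while the 3 features of Trim34a run from -0.46 to 0.92.

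Genes of the same pathway were read from lists. Of the 6 TRIM proteins under other names (among them Pml, the scaffold of nuclear bodies, and Mid1, a microtubule-bound ligase) 0 rose and 0 fell (limma), with 0 at an unadjusted p under 0.05 and a median of -0.05. Of 19 measured genes of ubiquitin conjugation, the Ube2 genes with the activating enzymes Uba6 and Uba7, 0 passed in limma, 2 at an unadjusted p under 0.05, with a median of 0.02; Ube2w, which attaches the first ubiquitin to protein ends, gave 0.22 ± 0.07 (limma adjusted p = 0.130). Of 22 measured genes of RNA and DNA sensing and interferon signalling 14 were above 0 and 8 below. Their median was 0.02, as over all genes. In limma 2 of the 22 rose and 0 fell, where 1.85% of all genes rose and 1.18% fell. The 2 that rose were Usp18 (0.65 ± 0.15, limma adjusted p = 0.0208) and Dhx58 (0.40 ± 0.09, 0.0207). Usp18 removes the ubiquitin-like Isg15 from proteins, and Dhx58 is an RNA helicase of the RIG-I family. Isg15 itself gave 0.52 ± 0.16 (0.112).

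Markers of other cells were read beside these rises. All 6 markers of the meninges were above 0 in sedentary SAMP8, with 1 passing, and their summed level was 11.76 to 12.22 over SAMR1 and 12.24 to 12.70 over sedentary SAMP8 arrays, without overlap. Choroid plexus markers (4 of 4 above 0, 1 passing) were at 7.95 to 10.33 and 8.49 to 10.62, with a median difference of 0.84. Of 6 astrocyte markers 4 were above 0 and 1 passed, Gfap, which rises in reactive astrocytes (0.72 ± 0.14, limma adjusted p = 0.00771), with summed levels of 16.09 to 16.28 and 16.11 to 16.26. Both red blood cell markers were above 0 and 0 passed, at 12.45 to 13.59 and 12.87 to 13.58. Microglia markers lay on both sides of 0 (3 of 6 above, median 0.02, 0 passing), at 12.38 to 12.74 and 12.55 to 12.80. Of the meningeal, choroid plexus, astrocyte, red blood cell and microglia markers 0 were dim on all 5 arrays of either group. The choroid plexus sum over 4 markers still had a median of only 8.10 in SAMR1. Its markers were thus near or below the lower quartile on most SAMR1 arrays, and the size of their difference rests on such values. Of 5 lymphocyte markers, 2 were dim on every array of both. The part of these cells in the Trim differences was not tested.

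The comparison of exercised with sedentary SAMP8 asked what exercise changed within that strain. No Trim gene passed: 0 rose and 0 fell in limma, as 0% of all genes did, and 2 of 50 had an unadjusted p under 0.05 (4%), where 7.08% of all genes had. In 0 of 50 genes were the groups free of overlap, against 1.1% of all genes, 0.732% higher and 0.366% lower. Differences above 0 were found for 24 of 50 (48%), where 55.4% of all genes had one. The median difference over the 50 genes was -0.02, against 0.02 over all genes. Trim12a gave -0.09 ± 0.09, with a 95% interval from -0.29 to 0.11, Trim36 -0.03 ± 0.09 (-0.23 to 0.17) and Trim34a -0.11 ± 0.17 (-0.48 to 0.26). Trim30a gave -0.17 ± 0.14 (-0.46 to 0.12), and Trim67 0.15 ± 0.11 (-0.09 to 0.38). These values and intervals are those of the brightest features. The second feature of Trim30a gave 0.17 ± 0.13 and the other features of Trim34a 0.29 ± 0.16 and 0.16 ± 0.22, the other way. The second features of Trim12a and Trim67 gave -0.08 ± 0.20 and 0.32 ± 0.20, on the same side as the brightest. For 36 of the 50 genes the interval lay within 0.5 of 0, and for 4 it reached past 1.

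Trim68 had the smallest p of the family in this comparison. It read 8.86, 8.37, 9.24, 9.53 and 9.33 on exercised replicates 11 to 15, 0.68 ± 0.23 above sedentary SAMP8, and the groups overlapped (limma adjusted p = 0.600, unadjusted p = 0.0103). The same 5 sedentary SAMP8 arrays enter this value and the -0.82 against SAMR1. Over features, 1 of the dimmer features of Trim9 had a smaller p, at -0.42 ± 0.14 (limma unadjusted p = 0.00885, adjusted p = 0.650 over all features). In that fit Trim68 had a limma unadjusted p of 0.0108. The brightest feature of Trim9 gave 0.05 ± 0.14 and the third -0.12 ± 0.11. Trim10, a regulator of red cell maturation that was dim on 14 of 15 arrays, gave 0.57 ± 0.27 (unadjusted p = 0.0496, limma adjusted p = 0.704). Trim17, known in neuronal cell death, gave 0.37 ± 0.18, Trim5 0.37 ± 0.30, Trim24, a nuclear receptor coregulator, 0.15 ± 0.08 and Trim14, an adaptor of the mitochondrial antiviral protein Mavs, 0.23 ± 0.13 (limma adjusted p 0.711 to 0.806). The dimmer second feature of Trim24 gave -0.04 ± 0.12. Trim37 gave -0.36 ± 0.24, with exercised replicate 15 at 10.93 and the other 4 exercised arrays from 11.97 to 12.29. Of the 5 measured striatum markers 0 were above 0 in exercised SAMP8, with summed levels of 11.45 to 11.98 against 11.91 to 12.57; their part was not tested.

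Exercised SAMP8 was also set against sedentary SAMR1, a comparison that shares its SAMR1 arrays with the first and confounds strain with exercise. Here 5 of 50 Trim genes passed (10%), where 4.26% of all genes did: 4 rose (8%, where 2.8% of all genes rose) and 1 fell (2%, where 1.45% did). Trim12a rose by 2.57 ± 0.09 (5.94-fold, limma adjusted p = 1.49e-10), Trim34a by 0.81 ± 0.17 (0.0131), Trim67 by 0.59 ± 0.11 (0.00534) and Trim36 by 0.47 ± 0.09 (0.00756). In each of the 4 the groups did not overlap, as in 1 gene that was lower; of all genes 5.8% did not overlap, 3.96% higher and 1.84% lower. At an unadjusted p under 0.05 there were 10 of 50 (20%), where 18.2% of all genes had one, and 34 of 50 were above 0 (68%), where 58.6% of all genes were. All 6 meningeal markers were above 0 in this comparison too, with 3 passing, a median of 0.59 and summed levels of 12.36 to 12.77 over the exercised arrays, above all SAMR1 arrays. Choroid plexus markers had 4 of 4 above 0 and 1 passing, and microglia markers 4 of 6 above 0 and 1 passing; the part of these cells in the Trim calls was not tested.

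Trim67 read 7.73, 7.62, 7.96, 7.58 and 7.66 on the exercised arrays, all above the highest SAMR1 array at 7.44. Trim30a gave 0.46 ± 0.14 (limma adjusted p = 0.0728): exercised replicate 15, at 5.81, fell among the SAMR1 arrays, while the other 4 lay between 6.43 and 6.70. Without replicate 15 it passed at 0.60 (limma adjusted p = 0.00190), and its second feature passed with all arrays (0.64 ± 0.13, limma adjusted p = 0.0107 over all features).

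The gene that fell was Trim55, which read 10.14, 10.05, 9.39, 10.23 and 9.38 on the exercised arrays, each below the lowest SAMR1 array at 10.54. Its difference was -1.17 ± 0.24, or 2.25-fold lower (limma adjusted p = 0.0105). Skeletal muscle markers had a summed level of 9.47 to 9.77 over these exercised arrays, within the range of the other groups but for its low end. One of the dimmer features of Trim9 also fell, by 0.90 ± 0.14 on the log2 scale (limma adjusted p = 0.00129 over all features), from 7.12 to 7.28 over SAMR1 to 6.02 to 6.68 over exercised SAMP8. The bright feature of Trim9 gave 0.06 ± 0.14 and the third -0.12 ± 0.11, so the features of this gene disagreed. Over features 8 of 83 passed (9.64%), where 3.28% of all features did.

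An exact two-sided permutation test of each of the 30 named Trim genes, 5 arrays against 5, can give no p below 0.00794. It gave that value for 4 genes between the sedentary strains (Trim12a, Trim34a, Trim30a and Trim36), for 5 between exercised SAMP8 and SAMR1 (Trim12a, Trim34a, Trim36, Trim55 and Trim67) and for 0 between exercised and sedentary SAMP8. Groups without overlap always reach that value, and these are the genes given above as free of overlap, so the test adds no separate support. Many of the 30 genes were also named for their p in these same data. These p-values were not adjusted over the 30 genes.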

How the data were processed

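The deposited table held Cy3 intensity, not log transformed, for 15 one-colour arrays. The submitters' processing notes name limma alone; how background and arrays were adjusted, and the build, were not stated there. The 15 columns had nearly the same quartiles, so values were taken as normalized and log2 was taken with no pseudocount. No slide or scan data were used, so no batch was tested. Arrays have no depth; their number limits the precision.

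Each gene was represented by its feature of highest mean (16401 genes) and fitted with limma 3.58.1 in R 4.3.3 (lmFit, eBayes) over 15 arrays in 3 groups, two-sided, with Benjamini-Hochberg adjustment over all genes and a threshold of 0.05. A second fit covered all 34479 features with values. Steps were tested on simulated data. Gene order came from the GRCm38.p6 gene table; promoter identity from Biopython 1.88 local alignment.

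The members and lists were chosen with earlier results of these data known. Named genes are those past the threshold, the measured cluster genes, 2 per class with the smallest p in the strain and in the exercise comparison, and the 6 of highest intensity. Trim30c, Trim34b and Trim30e-ps1 were not analysed here.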

Additional observations from a re-analysis of the deposited data

Results flagged for a closer look

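In the 30 named Trim genes, 90 groups of 5 arrays were checked for an array far from the others, and 2 were marked by Dixon's criterion, where chance marks about 1 in 20. In exercised SAMP8, Trim37 was at 10.93 on replicate 15, and the nearest array was at 11.97. Also in exercised SAMP8, Trim8 was at 12.09 on replicate 12, with the nearest array at 12.28.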

How the results depend on the processing

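Between the sedentary strains 5 Trim genes passed, and 3 passed with the mean of all features (Trim12a, Trim36 and Trim30a) or without the dimmest 30% of genes (Trim12a, Trim67 and Trim68), a filter that takes Trim34a, Trim30a and Trim36 out of the test. Between exercised SAMP8 and SAMR1 it was 5, and 3 without the dimmest 30% (Trim12a, Trim67 and Trim55). Leaving out 1 array gave 4 to 5 and 5 to 6 genes, and 0 for exercise in SAMP8. Quantile normalization, median centring, a pseudocount of 32, a trended and robust prior, array weights, adjustment over all features and the fit on 2 groups gave 4 to 5 and 5 to 6 genes, and 0 for exercise. Counts of features ran from 4 to 6, from 7 to 9 and stayed at 0. No called gene changed sign under any alternative run (0 of 185 values); 68 of 1486 values of uncalled genes did, in pairs whose difference was at most 0.23 in size. Of single-gene values 12 lost and 6 gained the threshold, among them Trim14 between exercised SAMP8 and SAMR1 without replicate 11 (0.50, adjusted p = 0.0425) and Trim30a with array weights (0.52, adjusted p = 0.0316) or the mean of its features (0.55, adjusted p = 0.00739). Trim34a lost it there with the mean of its features (0.33, adjusted p = 0.133). No paired analysis was possible because the groups share no replicate numbers. Dim features, here most of the Trim5 cluster, limit what could be measured.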

Other observations

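Some dimmer features of Trim genes differed between arrays of the same group, in all 3 groups. They were chosen after their values were seen. The second feature of Trim41 read 7.16 and 7.44 on sedentary SAMP8 replicates 6 and 7, and 8.16 to 8.86 on replicates 8 to 10, while the brighter feature stayed at 9.82 to 10.19 in that group. One of the dimmer features of Trim35 read 6.99 and 7.10 on the same replicates 6 and 7 and 7.58 to 8.13 on replicates 8 to 10, with the brightest feature at 11.07 to 11.46. The Trim9 feature that fell in exercised SAMP8 was also lowest on sedentary replicates 6 and 7, at 6.41 and 6.51, against 6.74 to 7.03 on replicates 8 to 10. So was the only feature of Trim68, at 8.11 and 7.86 against 8.24 to 9.03. The Trim41 feature read 8.14 on SAMR1 replicate 1, against 8.69 to 9.16 on the other SAMR1 arrays, and that of Trim35 7.36 against 7.88 to 8.45. On exercised replicates 11 to 13 the Trim41 feature ran from 7.75 to 7.92, and on replicates 14 and 15 it was 8.45 and 8.50. That of Trim35 ran from 7.21 to 7.40 and was 7.75 and 8.00 on the same arrays. The Trim9 feature and Trim68 were not low on SAMR1 replicate 1. They read 7.28 and 9.24 there, within the 7.12 to 7.28 and 8.93 to 9.46 of the other SAMR1 arrays. In the exercised group the Trim9 feature was lowest on replicate 15, at 6.02. Trim68 was highest on replicates 14 and 15, at 9.53 and 9.33.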
